A study of Mus musculus with 6 samples.

Results

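The hypoxia-inducible factor (HIF) pathway was examined at 9 mouse genes chosen by name: Hif1a, Epas1, Vhl, Egln1, Egln2, Egln3, Vegfa, Bnip3 and Ankrd37. Open-chromatin peaks whose summit, the position of strongest signal, lay in one of these genes or within 20 kb of it were taken as members. Peaks of different libraries that shared at least 1 bp were joined into regions, which gave 85 regions at the 9 genes of 99359 in all. Of these, 13 were promoter regions (summit within 1 kb of an annotated start of the gene), 63 were distal, and 9 lay at the promoters of other coding genes inside the windows. Regions are numbered along the chromosome within each gene, so that Egln3 2 is the second region of Egln3. Positions are on GRCm38 with the basic GENCODE M21 annotation.

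The study asked how removal of 1 kidney changes chromatin accessibility in the S1 segment of the proximal tubule, the first stretch after the glomerulus. It used ATAC-seq, which marks open DNA by where a transposase can insert, on 3 hand-dissected tubules per library. All mice were wild-type C57BL/6 males, 7 weeks old at operation, and all libraries were of the 24 h time point. Mice had a sham operation (Sham, 3 libraries) or a unilateral nephrectomy (UNx, 3 libraries), and both groups had surgery. No label ties a library to its own mouse, so the p-values measure the spread between libraries, which may be technical.

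In normal oxygen, prolyl hydroxylases encoded by Egln1, Egln2 and Egln3 modify the HIF alpha subunits (Hif1a; Epas1, which encodes HIF-2 alpha), and the ubiquitin ligase containing VHL then marks them for breakdown. When oxygen falls, the alpha subunits pair with ARNT and bind short DNA elements with the core ACGTG or GCGTG, which raises genes for angiogenesis, glycolysis and mitophagy, and also the hydroxylase gene Egln3 as feedback. In the kidney HIF-1 alpha is the form known from tubule cells, whereas HIF-2 alpha is known mainly from endothelial and interstitial cells.

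The sequences shown first are those around which the results turn: the strongest promoters of the 2 hydroxylase genes, Egln1 and Egln3, where these separated the groups, an intronic Egln3 region, a region downstream of Vegfa, an Epas1 region that was in the equal-length lists of Sham only, and 3 sites with HIF core strings in target genes. Each was read from the RefSeq GRCm38 genome, 5′ to 3′ on the strand of its gene. Capitals mark ACGTG or GCGTG on either strand, so that CACGT and CACGC in capitals are the same strings read from the other strand. Upstream sequences end at the outermost start that GENCODE or RefSeq annotates. The 250 bases before that of Egln1 (chr8:124949325-124949574, minus strand) held 1 such string, in a stretch of mostly G and C, and the same length before Egln3 (chr12:54203875-54204124, minus strand) held 1. The 250 bases before Bnip3 (chr7:138909520-138909769, minus strand) held 5, some overlapping.
Egln1 upstream: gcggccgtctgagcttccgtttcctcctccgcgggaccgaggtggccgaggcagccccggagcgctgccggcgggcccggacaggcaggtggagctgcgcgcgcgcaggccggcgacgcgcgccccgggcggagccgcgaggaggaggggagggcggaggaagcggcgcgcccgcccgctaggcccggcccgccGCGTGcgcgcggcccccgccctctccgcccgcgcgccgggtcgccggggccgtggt
Egln3 upstream: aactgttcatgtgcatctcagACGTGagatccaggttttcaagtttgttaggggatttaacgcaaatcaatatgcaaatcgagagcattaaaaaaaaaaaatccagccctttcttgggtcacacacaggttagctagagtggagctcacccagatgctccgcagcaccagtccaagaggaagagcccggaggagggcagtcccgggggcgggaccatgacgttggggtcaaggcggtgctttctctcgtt
Bnip3 upstream: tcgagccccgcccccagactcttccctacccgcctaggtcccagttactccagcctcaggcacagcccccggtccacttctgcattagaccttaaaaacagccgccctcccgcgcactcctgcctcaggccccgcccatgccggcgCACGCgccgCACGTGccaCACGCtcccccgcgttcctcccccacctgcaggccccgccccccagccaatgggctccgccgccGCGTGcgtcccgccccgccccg

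The windows of 100 bases on either side of the strongest summit followed for Egln3 2 (chr12:54191172-54191372, minus strand), with 3 strings, for Vegfa 2 (chr17:46004307-46004507, minus strand), with 4, and for Epas1 6 (chr17:86788122-86788322, plus strand), with 0. Epas1 6 held 3 strings outside this window. Other windows, not printed, differed: Bnip3 9 and Hif1a 3, higher in every UNx library, held 0, and Egln1 11, lower in every UNx library, held 2.
Egln3 2: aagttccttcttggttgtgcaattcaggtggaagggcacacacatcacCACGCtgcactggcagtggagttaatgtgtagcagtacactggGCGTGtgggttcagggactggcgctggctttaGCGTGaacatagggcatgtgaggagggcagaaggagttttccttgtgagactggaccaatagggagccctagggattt
Vegfa 2: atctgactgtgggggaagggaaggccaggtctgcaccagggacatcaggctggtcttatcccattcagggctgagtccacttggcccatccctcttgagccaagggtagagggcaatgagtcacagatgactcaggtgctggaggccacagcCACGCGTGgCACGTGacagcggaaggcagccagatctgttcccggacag
Epas1 6: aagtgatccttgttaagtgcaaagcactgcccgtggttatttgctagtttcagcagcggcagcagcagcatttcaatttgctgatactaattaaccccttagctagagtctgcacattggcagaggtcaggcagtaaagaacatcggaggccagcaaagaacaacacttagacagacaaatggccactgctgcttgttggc

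The hypoxia response element TACGTGGG is known from the flank upstream of the Vegfa gene. It was found at chr17:46033294-46033301, 925 bp upstream of the annotated gene start, and is shown within 60 bases (chr17:46033268-46033327, minus strand). In the Ankrd37 promoter a pair of GCGTG strings overlapped on opposite strands (chr8:45999987-46000016, minus strand).
Vegfa upstream: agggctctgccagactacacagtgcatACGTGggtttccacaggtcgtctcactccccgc
Ankrd37 pair: ccttcactgcgCACGCGTGctgcggccgcc
The Ankrd37 pair lay under a peak in 6 of 6 lists. The Vegfa element lay 300 bp beyond the edge of the nearest promoter region and overlapped a peak in 0 of 6 lists.

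Accessibility was read as a percentile rank. Within the list of each library, peaks were ordered by the −log10 q-value that the authors deposited, lists were brought to the same length of 77355 peaks, and the strongest peak received a rank near 100. A region absent from those peaks has rank 0. A rank is a place among the peaks of one library, so a change shared by all peaks does not show in it, and differences between groups are in percentile points. The full lists held 97834, 77355 and 96970 peaks in Sham and 93583, 100999 and 98214 in UNx, and sequencing depth is unknown because they carry no read counts. The median −log10 q per list was 17.4, 12.1 and 18.1 in Sham and 14.5, 20.3 and 26.5 in UNx. The label of the tissue was checked on promoters: 7 of 7 S1 marker genes were open in all 6 lists, at a mean rank of 88.3 to 91.4 per library, and 0 of 3 immune markers had a promoter peak. Of 3 stroma markers 1 had a promoter peak. This was Col1a1, open in all 6 lists (mean rank 65.1) and lower in every UNx library than in every Sham library. Promoters of other nephron cells were open too, in some list, for 4 of 5 S2 and S3 genes, 5 of 7 genes of the loop, distal tubule and collecting duct, and 3 of 3 podocyte genes. Of these, Aadat (S2 and S3, mean rank 94.9) and Scnn1g (collecting duct, 89.9) ranked as high as S1 markers. The S2 and S3 markers had a mean rank of 35.0 to 45.7 in Sham libraries and 28.8 to 34.8 in UNx libraries, and those of the loop, distal tubule and collecting duct 38.3 to 41.5 and 33.9 to 42.4. Single genes of these lists differed in both directions. Slc7a12 (-28.7 points) and Slc12a1 (-26.7) were lower after UNx, and Aadat (4.98) and Umod (3.91) were higher. None of these differences passed the adjusted test described below. Their part in the results at the 9 genes was not tested.

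All 9 genes had an open promoter in every list, and no region of these genes passed the test between operations. Of the 85 regions, 51 were present in all 6 lists, 14 distal ones were too rare to test (13 of them in 1 list), and 71 were present in at least 3 of the 6 lists and were tested together with all 74781 such regions by limma, with Benjamini-Hochberg adjustment over all of them. The count with an adjusted p under 0.05 was 0 of 71 at the pathway genes, beside 0.788% of all tested regions (0.435% that were higher after UNx and 0.353% that were lower). Without adjustment, 16 of 71 regions (22.5%) had a p under 0.05, beside 18.6% of all regions. The groups did not overlap, with every UNx library above or below every Sham library, in 21 of 71 (29.6%), beside 23.7% of all. Of those 21, 13 were higher after UNx, where the share of all regions was 12.0%, and 8 were lower, where it was 11.7%. Among the 21, Epas1 6 and Vhl 8 met the minimum of 3 lists through 1 operation alone, which fixed their lack of overlap. The share of all regions counts regions of that kind too. The smallest adjusted p was 0.077, at the Egln1 promoter.

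Neither promoters nor distal regions of the 9 genes held a region that passed. Of 13 promoter regions 6 (46.2%) did not overlap between groups, 3 in each direction, beside 20.8% of all tested regions at coding promoters, and their median difference was 0.20 percentile points against 0.00 at all coding promoters. Of 49 tested distal regions 13 (26.5%) did not overlap, 9 higher and 4 lower, beside 24.4% of all regions away from coding promoters. The median distal difference was 1.81 points, against -0.03 at all regions away from promoters. The median at these distal regions ran from -0.06 to 4.20 when each library was left out in turn.

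**Figure D1:**
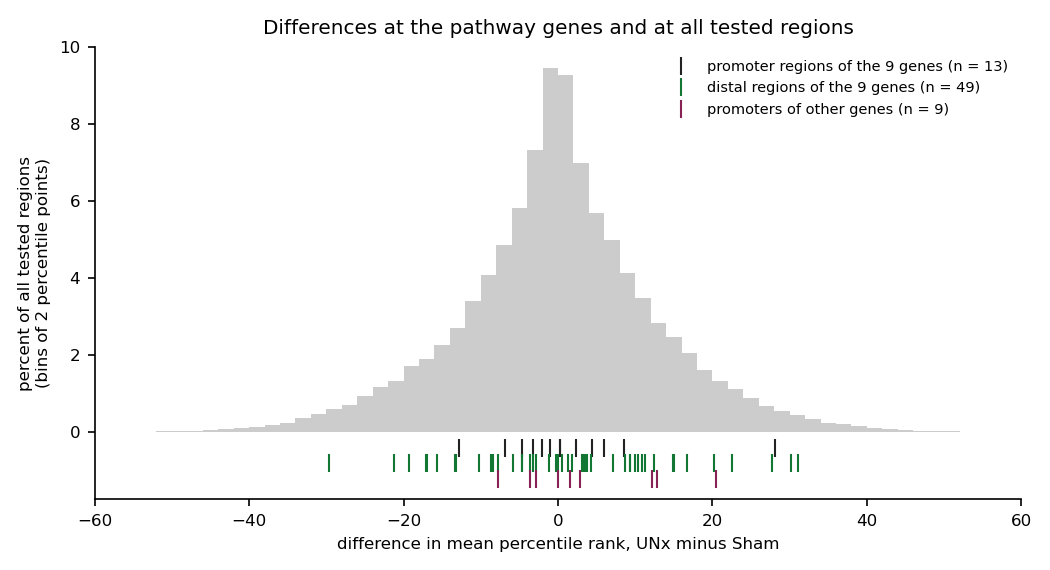
Difference in mean percentile rank, UNx minus Sham (x axis, percentile points), for all 74781 tested regions (grey, percent of regions in bins of 2 points) and for the 13 promoter, 49 distal and 9 other-promoter regions at the pathway genes (ticks). The ticks run from -29.6 (Vegfa 11) to 31.1 (Vegfa 5), with the promoter of lowest difference at -12.8 (Egln1 9) and the promoter of highest at 28.1 (Egln2 3).

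The number of peaks near the 9 genes did not separate the operations. In equal-length lists it was 67, 75 and 73 in Sham (71.7 ± 4.16, SD, n = 3) and 75, 72 and 77 in UNx (74.7 ± 2.52, SD, n = 3). The difference of 3.0 peaks gave p = 0.5 in a two-sided exact permutation test, in which 3 libraries against 3 cannot go below 0.1. In the full lists the means were 82.0 ± 7.0 and 91.3 ± 3.06 (SD, n = 3 each; exact permutation p = 0.2).

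Set in order of mean rank over the 6 libraries, the strongest promoter region of each gene ran from Hif1a (96.9) through Ankrd37 (96.5), Epas1 (91.6), Egln1 (87.2), Bnip3 (86.4), Egln3 (84.8), Egln2 (82.6) and Vhl (80.5) to Vegfa (77.9). These ranks are of whole peaks and are not per length. The gap between Ankrd37 and Epas1, 4.98 points, was larger than the SD over libraries of both genes (2.52 and 2.2). The gap of 4.37 from Epas1 to Egln1 exceeded the SD of Epas1 but not that of Egln1 (9.10), and each of the other neighbours in that order differed by less than its spread. The Hif1a promoter ranked above 85.9% of the strongest promoter regions of coding genes, and the Vegfa promoter above 36.9%. The order differed by operation: Egln1 stood above Epas1 in Sham (93.6 against 91.5) and below Egln2 in UNx (80.8 against 81.6), and Egln3 stood below Vhl in Sham (80.5 against 81.0) and above Bnip3 in UNx (89.1 against 87.6). Each of these gaps was smaller than the SD over the 3 libraries of at least 1 gene of its pair. Such SDs were 2.23 for Egln1 in Sham, 8.93 for Egln1 in UNx, 4.98 for Egln3 in Sham and 2.66 for Bnip3 in UNx.

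**Figure D2:**
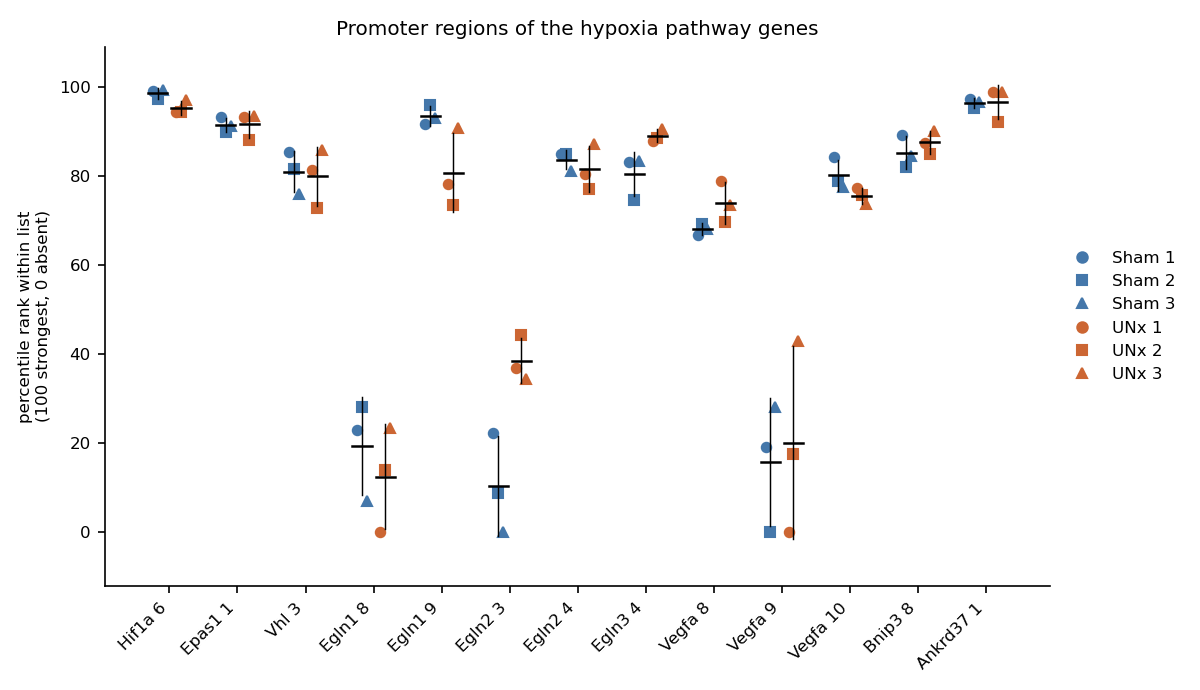
Percentile rank within each list (y axis, 100 strongest, 0 absent) of the 13 promoter regions of the 9 genes, with a symbol per library, a bar at the group mean and a line of 1 SD (n = 3). Of the 13, Egln1 9, Hif1a 6 and Vegfa 10 lie lower in all 3 UNx libraries, and Egln3 4, Egln2 3 and Vegfa 8 lie higher.

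The genes of the HIF alpha subunits kept strong promoters after both operations. The Hif1a promoter (Hif1a 6, chr12:73907295-73908735, summit in the 5′ UTR) had ranks of 99.1, 97.2 and 99.4 in Sham and 94.4, 94.4 and 97.1 in UNx. All 3 UNx values lay below the Sham values, by a small step near the top of the scale. The difference was -3.26 points (SE 1.44; limma adjusted p = 0.234). A region upstream of that promoter, in an intron of the noncoding gene Gm15283 (Hif1a 3, chr12:73892464-73893290), went the other way, with 80.7, 76.8 and 70.1 in Sham and 82.9, 88.4 and 86.2 in UNx (difference 10.03, SE 3.79; limma adjusted p = 0.168). The groups did not overlap there. The strongest distal region of the gene, an intronic one at chr12:73929952-73931193 (Hif1a 7), overlapped between groups, with means of 89.3 ± 6.87 and 92.8 ± 1.298 (SD, n = 3 each).

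The Epas1 promoter (Epas1 1, chr17:86753076-86755447) had ranks of 93.2, 89.9 and 91.3 in Sham and 93.4, 88.2 and 93.5 in UNx, a difference of 0.20 points (SE 2.07). An intronic region 16305 bp inside the gene (Epas1 3, chr17:86769498-86770379) outranked it. That region had 98.1, 99.1 and 96.8 in Sham and 97.1, 98.7 and 97.3 in UNx, so it stood among the strongest peaks of every list with no separation of the groups. Of the 10 tested Epas1 regions 2 (20.0%) separated the groups, beside 23.7% of all tested regions. Both lay further into the gene and were lower after UNx. Epas1 5 (chr17:86781743-86782405, intron) had 59.3, 59.4 and 63.6 in Sham and 45.8, 49.7 and 39.7 in UNx (difference -15.7, SE 7.40; limma adjusted p = 0.264). Epas1 6 (chr17:86787963-86788535, intron), one of the 2 regions in all 3 equal-length lists of an operation and in 0 of its counterpart, had 28.2, 5.89 and 16.7 in Sham and 0 in each UNx list. It met the minimum of 3 lists through Sham alone, so its groups could not overlap and the lack of overlap is no evidence of a difference. In the full lists Epas1 6 was present in 3 Sham lists and 1 UNx list. Endothelial markers were also weaker in UNx lists: 6 of 6 had a promoter peak in some list and 0 in all 6, their mean rank was 3.91 to 8.58 in Sham libraries and 0 to 0.732 in UNx libraries, and Pecam1, Kdr, Flt1, Emcn and Tek were at 0 in every UNx list. Their part in the Epas1 differences was not tested, and in bulk tubules fewer cells of a type and less open chromatin per cell cannot be told apart.

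Vhl, which encodes the substrate-binding part of the ligase, had a promoter region (Vhl 3, chr6:113623797-113625054) with ranks of 85.4, 81.6 and 76.1 in Sham and 81.3, 72.8 and 85.8 in UNx. The groups overlapped and their means differed by -1.01 points (SE 4.12). Its 3 tested distal regions were weak. Of these, Vhl 8 (chr6:113649492-113650009) had 0 in each Sham list and 2.07, 22.3 and 36.1 in UNx (difference 20.2). Like Epas1 6, it met the minimum of 3 lists through 1 operation alone, here UNx, so its groups could not overlap. The difference was 12.2 without UNx library 3 and 29.2 without UNx library 1. Vhl 8 lies in an intron of Irak2, a kinase gene of Toll-like and interleukin-1 receptor signalling, and the full lists held it in 2 Sham and 3 UNx libraries. Sham library 1 had a −log10 q of 5.92 there, below the 6.07 of the last peak used in its list. UNx library 1 had a lower value, 5.01, but its last peak used was at 4.76. The 0 of Sham library 1 thus rests on the cut to equal length. The strongest distal region in the window, Vhl 7 (chr6:113644543-113645251), is also in an Irak2 intron and overlapped between groups (19.01 ± 11.7 and 5.64 ± 4.89, SD, n = 3 each).

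Both Irak2 promoter regions in the Vhl window separated the groups, in opposite directions. They are named because they were seen to do so, and they belong to Irak2 and not to Vhl. Vhl 5 (chr6:113638197-113639106) had 99.3, 99.0 and 99.7 in Sham and 97.1, 98.4 and 91.8 in UNx, and Vhl 6 (chr6:113639214-113639674, in an intron near the start) had 42.4, 47.4 and 55.3 against 66.0, 62.2 and 78.4 (difference 20.5, SE 7.11; limma adjusted p = 0.139). The other 7 promoter regions of neighbouring genes in the windows overlapped between groups.

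Among the 3 prolyl hydroxylase genes, Egln1 and Egln3 differed in opposite directions at their promoters, and neither passed the adjusted test. Egln1, which encodes PHD2, the main oxygen sensor of the family, had its promoter region at chr8:124949045-124950047 (Egln1 9). Its ranks were 91.7, 96.0 and 93.1 in Sham and 78.3, 73.4 and 90.7 in UNx. Each UNx value was below each Sham value, and UNx library 3 lay close to the Sham range. The difference was -12.8 points (SE 3.45; limma adjusted p = 0.077, and 0.043 to 0.354 over the alternatives in processing). It ran from -17.7 without UNx library 3 to -9.06 without UNx library 2, and was -11.02 with ranks corrected for GC content, which was 86.6% around this summit. The fold enrichment over background, a ratio that the authors deposited for each peak, was 11.6, 11.7 and 11.001 in Sham and 7.80, 7.40 and 10.97 in UNx.

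Of the 9 tested Egln1 regions, 8 had a lower mean after UNx and 2 (22.2%) did not overlap, near the 23.7% of all tested regions. The second was intergenic, 15890 bp from the gene start (Egln1 11, chr8:124964962-124965518), with 66.7, 58.1 and 70.2 in Sham and 32.0, 48.0 and 56.9 in UNx (difference -19.3, SE 7.91; limma adjusted p = 0.200), and a difference of -12.5 without UNx library 1. The strongest distal region in the window, in a coding exon of the neighbouring gene Sprtn (Egln1 2, chr8:124903065-124903729), overlapped between groups at 76.6 ± 2.87 and 71.9 ± 6.53 (SD, n = 3 each). A weak second promoter region in the first coding exon of Egln1 (Egln1 8, chr8:124948264-124948871) also overlapped, with 23.0, 28.1 and 7.13 against 0, 14.03 and 23.5.

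The promoters of 3 coding genes lay closest to Egln1 9 over the 6 libraries, by Euclidean distance of the percentile ranks. They were Hmgn2 (distance 5.77), Slk (6.26) and Tmcc1 (6.45). Hmgn2 had ranks of 92.8, 97.1 and 88.0 in Sham and 78.9, 73.1 and 88.5 in UNx. Its groups overlapped, as UNx library 3 lay above Sham library 3. The genes were picked for closeness, so their likeness to Egln1 9 over the libraries follows from that choice.

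Egln3 encodes PHD3, itself a HIF target, and 6 of its 6 tested regions had a higher mean after UNx, 2 of them without overlap (33.3%, against 23.7% of all tested regions). Its promoter (Egln3 4, chr12:54202778-54204227) had 83.2, 74.7 and 83.5 in Sham and 87.9, 88.6 and 90.7 in UNx. The UNx libraries lay close together, above every Sham library. The difference was 8.57 points (SE 3.08; limma adjusted p = 0.151, and 0.176 to 0.871 over the alternatives), but -2.17 when peaks were ranked by fold enrichment, which was 12.6, 8.56 and 12.7 in Sham and 10.6, 11.03 and 12.3 in UNx. Without Sham library 2 it was 5.70. The direction at this promoter thus depends on the ranking value.

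An intronic region 12588 bp inside the gene (Egln3 2, chr12:54190994-54192498) was the strongest distal region of Egln3 and the one of smallest p. It had 72.5, 73.8 and 65.5 in Sham and 83.0, 81.7 and 92.3 in UNx. Every UNx library lay above every Sham library. The difference was 15.1 points (SE 4.35; limma adjusted p = 0.0906, and 0.0262 to 0.745 over the alternatives), and 4.20 when ranked by fold enrichment. The window printed for Egln3 2 holds GCGTG at 7, 25 and 50 bp from the summit, measured to the centre of the string.

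Egln2 encodes PHD1, and its main promoter region (Egln2 4, chr7:27166082-27167505) did not separate the groups, with 84.9, 85.0 and 81.2 in Sham and 80.4, 77.0 and 87.2 in UNx. A short region in a coding exon 988 bp from the start, still within the promoter window (Egln2 3, chr7:27165296-27165668), did. Its ranks were 22.3, 8.95 and 0 in Sham and 36.9, 44.2 and 34.5 in UNx (difference 28.1, SE 10.8; limma adjusted p = 0.176). It was present in all 6 full lists, so the 0 of Sham library 3 marks a peak below the strongest 77355. The distal regions of Egln2, an intronic one (Egln2 2, chr7:27159810-27160443) and an intergenic one (Egln2 7, chr7:27185808-27186828), had differences of -0.09 and 0.58 points.

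**Figure D3:**
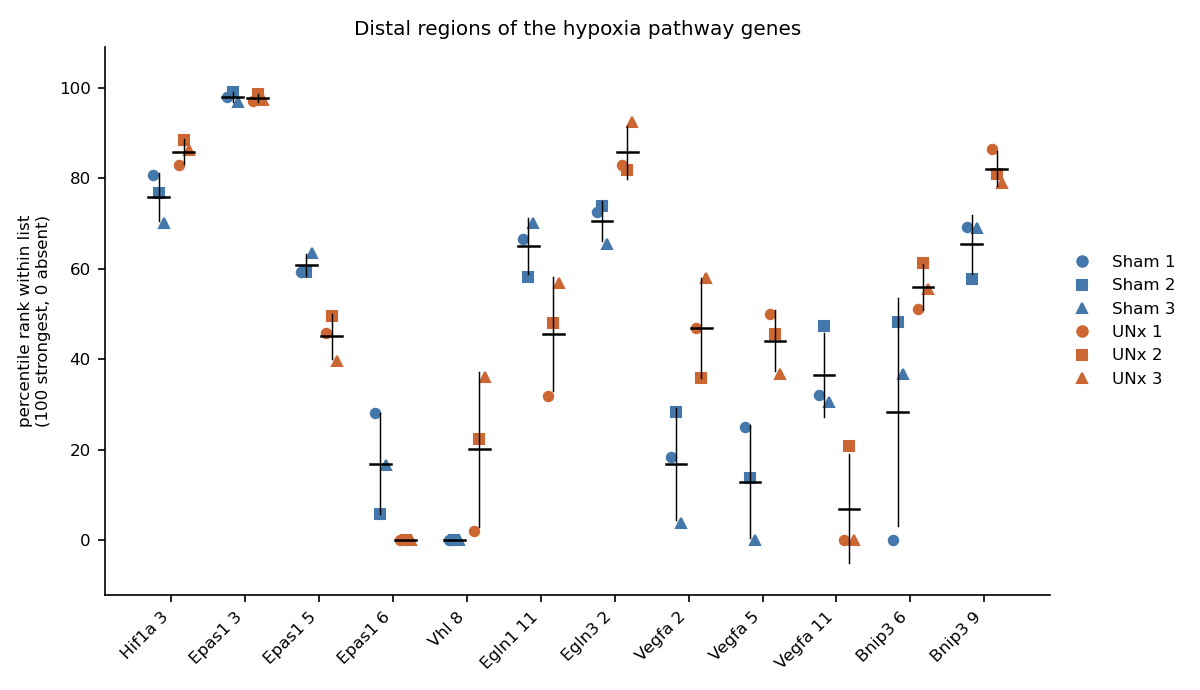
Percentile rank within each list (y axis, 100 strongest, 0 absent) of 12 distal regions of the pathway genes, with a symbol per library, a bar at the group mean and a line of 1 SD (n = 3). Egln3 2, Bnip3 9, Vegfa 2 and Vegfa 5 lie higher in all 3 UNx libraries. Epas1 5, Epas1 6, Egln1 11 and Vegfa 11 lie lower, and Epas1 3 stays between 96.8 and 99.1. The 12 regions were selected and do not give the share of either direction. Of all 49 tested distal regions, 13 did not overlap between groups. Of these, 9 were higher after UNx, Hif1a 3, Vhl 8 and Bnip3 6 among them, and 4 were lower.

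Vegfa, which encodes the main angiogenic growth factor of the kidney, had 12 regions, of which 10 were tested, and 6 of those did not overlap between groups, 4 higher and 2 lower after UNx (over all tested regions, 23.7% did not overlap, 12.0% higher and 11.7% lower). Its promoter was split. The region at the annotated gene start (Vegfa 10, chr17:46032235-46032994) had 84.2, 78.8 and 77.7 in Sham and 77.4, 75.8 and 73.7 in UNx, lower in each UNx library by narrow margins (difference -4.61, SE 4.05; limma adjusted p = 0.576; difference -2.63 without Sham library 1). The region further into the gene (Vegfa 8, chr17:46030518-46031487, in an intron, 341 bp from an annotated start) had 66.7, 69.3 and 68.2 against 79.0, 69.6 and 73.4, higher in each UNx library, also narrowly (difference 5.92, SE 5.05; adjusted p = 0.562; difference 3.44 without UNx library 1). Between them, Vegfa 9 (chr17:46031769-46032090, 5′ UTR) was absent from 1 Sham and 1 UNx list and overlapped.

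Distal Vegfa regions showed larger steps at lower ranks. The intronic Vegfa 5 (chr17:46022394-46022780) had 25.1, 13.9 and 0 in Sham and 50.01, 45.6 and 36.7 in UNx, with no overlap (difference 31.1, SE 10.9; limma adjusted p = 0.142). The strongest distal region, Vegfa 1 (chr17:45996883-45997688, intergenic), overlapped, at 64.5 ± 11.1 and 75.4 ± 3.67 (SD, n = 3 each). A pair of intergenic regions is named here after their values were seen. Vegfa 2 (chr17:46003943-46004819, 26949 bp from the start) had higher ranks in UNx, with 18.4, 28.4 and 3.74 against 47.0, 35.9 and 58.1 (difference 30.2, adjusted p = 0.152). Vegfa 11 (chr17:46038856-46039238, 6747 bp upstream) had 32.0, 47.3 and 30.5 against 0, 20.9 and 0 (difference -29.6, adjusted p = 0.163). It was in all 6 full lists, so each 0 there marks a peak below the strongest 77355. Both pairs of groups were apart, in opposite directions.

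Bnip3 encodes a mitochondrial outer membrane protein of mitophagy. Its promoter (Bnip3 8, chr7:138909165-138910164), the one with 5 core strings in the sequence shown, had 89.3, 82.0 and 84.4 in Sham and 87.5, 84.9 and 90.2 in UNx, with overlap and a difference of 2.32 points (SE 2.78). Upstream, the intergenic Bnip3 9 (chr7:138918996-138920033, 9811 bp from the start) had 69.2, 57.8 and 69.1 in Sham and 86.4, 80.9 and 78.9 in UNx. Those groups were well apart, by 16.7 points (SE 4.96; limma adjusted p = 0.0959, and 0.0772 to 0.356 over the alternatives), and the difference kept its sign in all 19 of them. The strongest distal region, the intronic Bnip3 3 (chr7:138898107-138898612), did not separate the groups (78.6 ± 8.11 and 81.7 ± 1.88, SD, n = 3 each).

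Ankrd37 encodes an ankyrin-repeat protein whose gene is a direct HIF target. Its promoter (Ankrd37 1, chr8:45999199-46000500), which also lies in an intron of the overlapping gene Lrp2bp, had 97.3, 95.3 and 96.7 in Sham and 98.9, 92.2 and 98.8 in UNx. The UNx libraries spread around the Sham values, and the means differed by 0.20 points (SE 1.74). The region held 10 core strings over its 1302 bp, the highest number among the 13 promoter regions of the 9 genes. That number is not scaled to width: Bnip3 8 held 9 in 1000 bp and Vegfa 8 held 8 in 970 bp. Within 100 bp of the summit Ankrd37 1 held 3, against 4 in Vhl 3. Ankrd37 had no distal region, and the second region in its window was the Lrp2bp promoter.

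**Figure D4:**
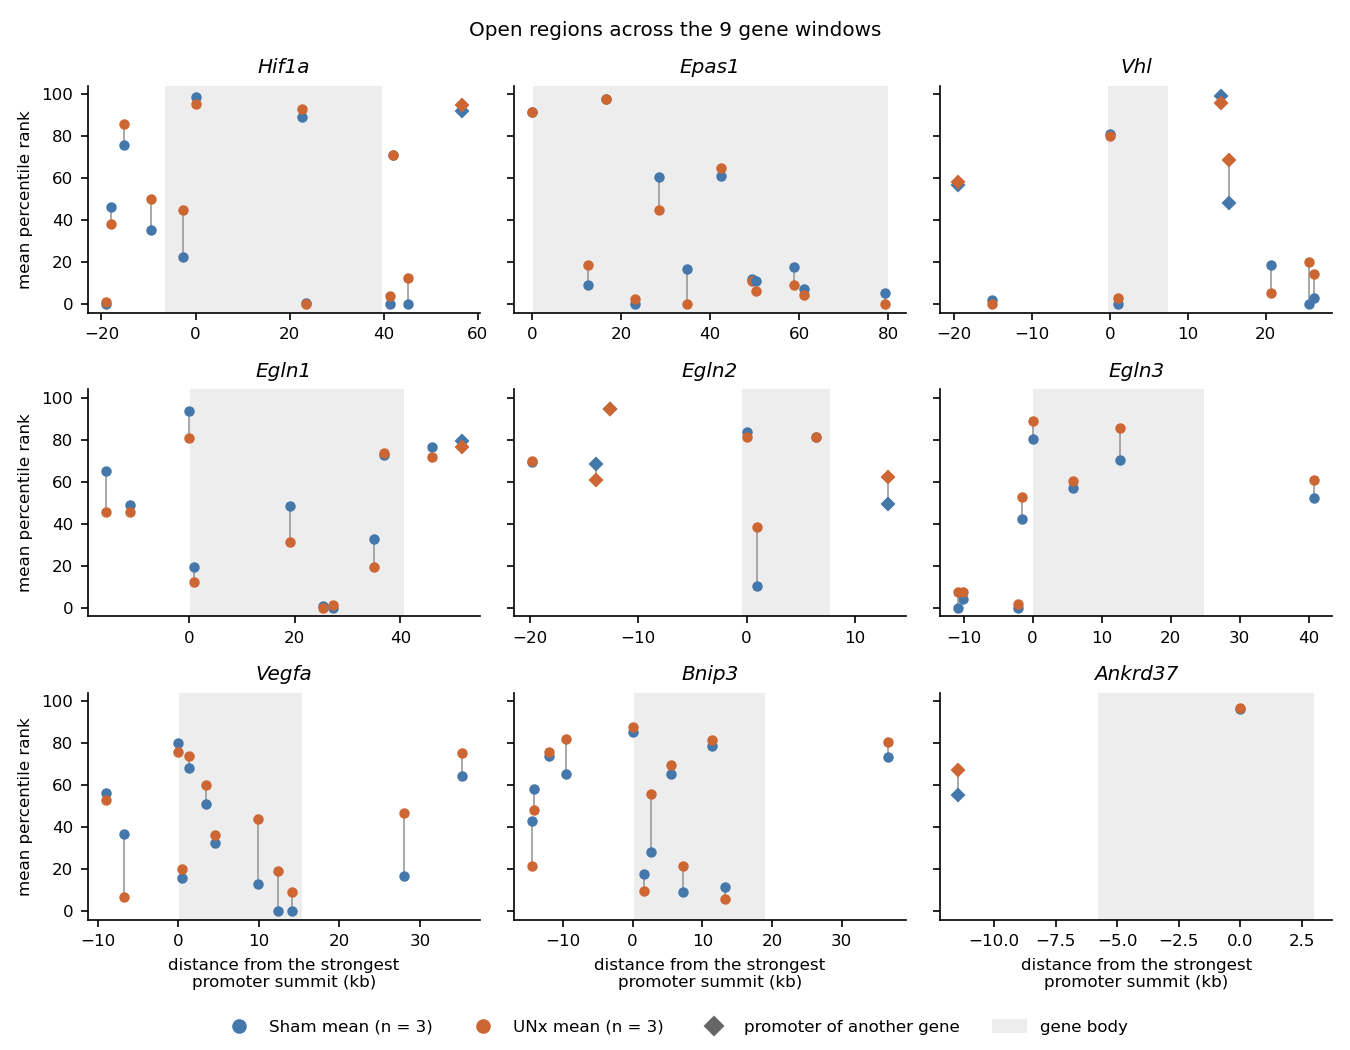
Mean percentile rank of each region (y axis) in Sham and UNx (n = 3 libraries each) against distance from the strongest promoter summit of its gene (x axis, kb, positive in the direction of transcription), 1 panel per gene, with the gene body shaded and promoters of other genes as diamonds. Epas1 has its strongest region inside the gene at 98.0 in Sham and 97.7 in UNx, and the 6 tested Egln3 regions have higher means after UNx.

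The HIF core strings were common at promoters, those of the 9 genes included. ACGTG or GCGTG, searched on both strands within 100 bp of the summit, stood in 8 of 13 promoter regions of the 9 genes (61.5%), against 48.8% of all promoter regions, and in 19 of 63 distal regions (30.2%), against 22.5% of all regions away from promoters. ACGTG alone was in 5 of 13 promoter regions (38.5%, against 16.6%) and GCGTG alone in 7 of 13 (53.8%, against 39.4%). CACGTG, the E-box that contains ACGTG, was in 0 promoter windows and 3 distal windows (4.8%, against 4.27%; promoters, 6.36%). The AP-1 string TGANTCA was in 1 promoter window, that of Egln2 3, and 3 distal windows, including 2 copies in Vegfa 2, against 3.28% of all promoters and 8.17% of other regions. The HNF4 string CAAAGTCCA was in 2 distal windows, those of Vegfa 1 and Egln1 11 (3.2%, against 2.59%), and the HNF1 string, searched on both strands, in 0 (against 0.0359%). These are matches of letters and not shown to be bound.

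Regions at these genes covered more bases after UNx more often than fewer, as did all tested regions. This measure, the bases of a region under peaks in each equal-length list, was added after the ranks had been seen. It was larger in all 3 UNx lists than in all Sham lists in 19 of 71 regions (26.8%), beside 15.7% of all tested regions. In 3 regions it was smaller, beside 3.06%. Among the 13 promoter regions 5 were wider (38.5%), beside 21.7% of coding promoters. Of the 49 distal regions 8 were wider (16.3%), near the share of all tested regions. Promoters of other genes in the windows were wider in 6 of 9 (66.7%), and these are not pathway genes. The Epas1 promoter, whose rank did not differ, covered 1453, 1172 and 1630 bp in Sham and 1969, 2281 and 2209 bp in UNx. Egln3 2 covered 1032, 954 and 1010 bp against 1202, 1474 and 1296 bp, and the Egln3 promoter 936, 844 and 866 bp against 1139, 1060 and 1286 bp. The share of the unequal median −log10 q of the lists in these widths was not tested.

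A wider list of 51 HIF pathway genes, ordered by role, was read at 1 promoter region per gene. Of these, 50 had a promoter region (Pfkl had none) and 47 were tested, with 0 called by limma in either direction, beside 0.394% of coding genes. An unadjusted p under 0.05 was reached by 8, beside 13.2%, and 13 did not overlap, 4 higher and 9 lower after UNx, beside 19.9%. The median difference was -0.86 points, against -0.19 for all coding genes, and the smallest adjusted p was 0.0885. The partner gene Arnt ranked at 98.9 on average and differed by 0.10 points.

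By role, glycolysis and glucose uptake genes had 8 lower and 6 higher means of 14 tested. Groups did not overlap in 5 of the lower and 0 of the higher ones (all coding genes, 19.9% for both directions together). Pgk1, a glycolytic kinase, had 93.3, 92.0 and 96.7 in Sham and 86.7, 88.7 and 88.5 in UNx (difference -6.06, SE 2.05; limma adjusted p = 0.131). Gpi1, the isomerase of glucose 6-phosphate, had a difference of -7.40 points (SE 2.70, limma adjusted p = 0.156), and Pfkfb4, which makes a regulator of glycolysis, one of 7.49 (SE 4.04, limma adjusted p = 0.332). Mxi1, a MYC antagonist, had the smallest p of the list, with 89.4, 96.3 and 92.7 in Sham and 82.3, 83.0 and 86.9 in UNx (difference -8.77, SE 2.51, limma adjusted p = 0.0885). All UNx values of Pgk1 and Mxi1 lay below the Sham values.

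Among the vascular, haem and iron genes 3 were higher and 1 lower without overlap, of 9 tested (all coding genes, 19.9% for both directions together). Edn1, which encodes the vasoconstrictor endothelin-1, had 36.2, 37.7 and 35.4 in Sham and 63.2, 56.0 and 56.95 in UNx (difference 22.3, SE 8.06; limma adjusted p = 0.153). Tfrc, the transferrin receptor gene, had a difference of 4.05 points (SE 1.85, limma adjusted p = 0.25). Flt1, which encodes a VEGF receptor of endothelium, was the lower one, with 3.75, 11.6 and 20.3 in Sham and 0 in each UNx list, beside the endothelial markers given with Epas1. Its promoter met the minimum of 3 lists through Sham alone, so its groups could not overlap. The other VEGF receptor gene Kdr had 0, 16.9 and 4.74 in Sham and 0 in each UNx list and was too rare to be tested.

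**Figure D5:**
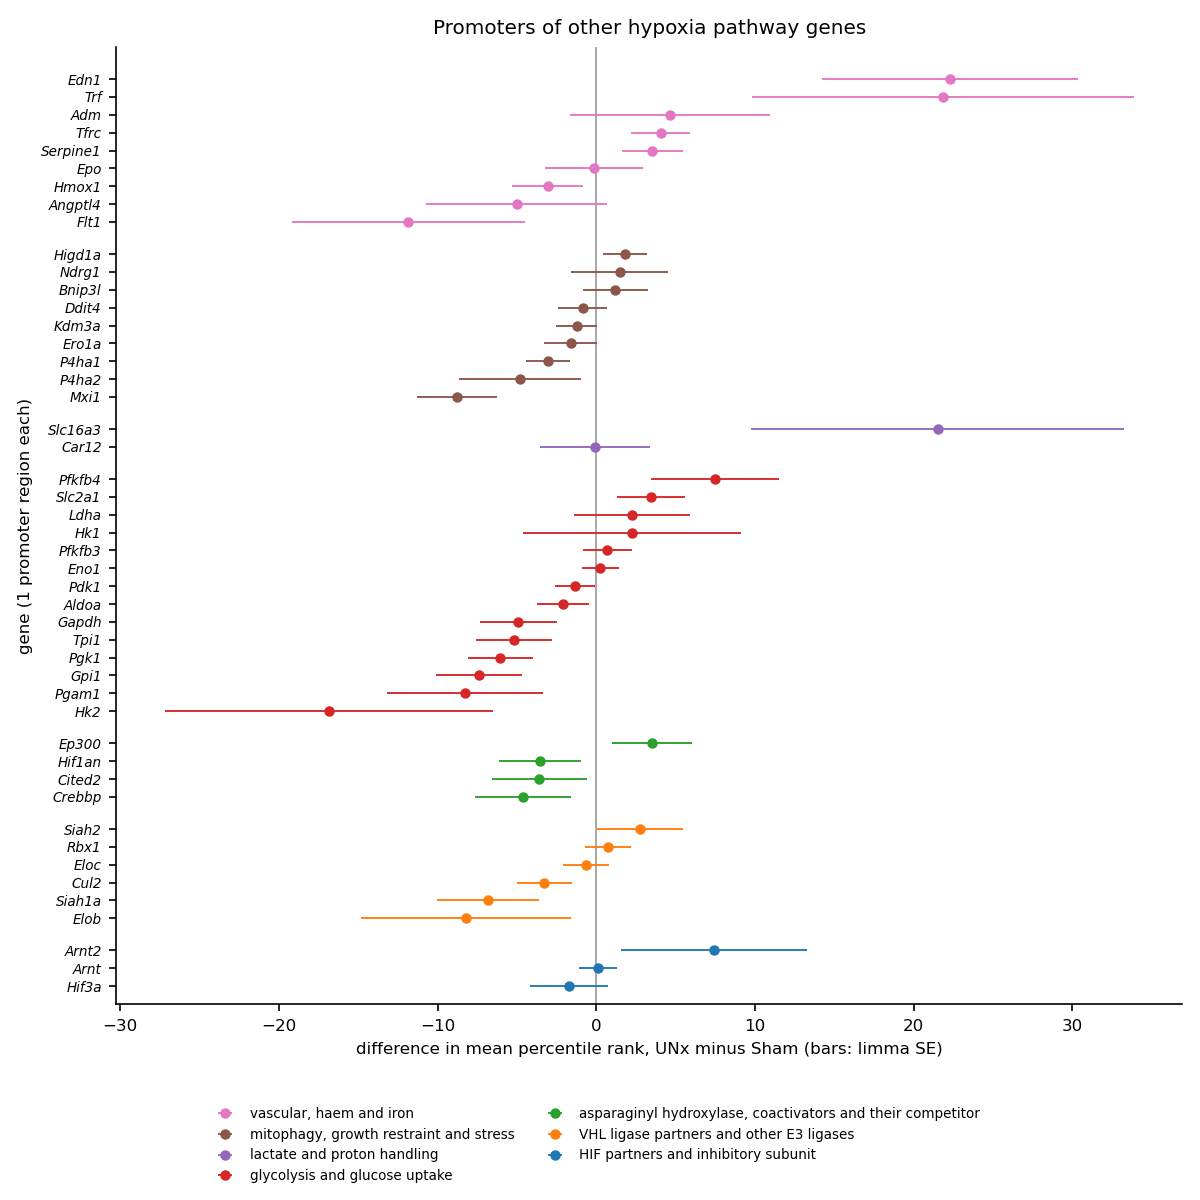
Difference in mean percentile rank, UNx minus Sham, with the limma SE (x axis, percentile points) at the promoter region of 47 other HIF pathway genes (y axis), grouped by role. Edn1 has the highest difference, 22.3, and Hk2 the lowest, -16.9, and none passed the adjusted test.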

How the data were processed

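The data were 6 ATAC-seq peak lists of S1 proximal tubules, 3 Sham and 3 UNx. Per the submitters' processing notes, the tools included cutadapt 3.4, Bowtie, SAMtools, Picard and MACS2 2.2.7.1, with genome build mm10. The authors deposited 1 list per library, with a display score, a fold enrichment (ratio) and −log10 p- and q-values per summit; settings are not given in the sources used here, and depth is unknown. Summits of 1 interval were joined into 1 peak on chromosomes 1 to 19, X and Y. Ranks were tested with limma 3.58.1 in R 4.3.3 (robust fit with a mean-variance trend, both directions, Benjamini-Hochberg), with no replicate block; the script was tested on simulated data. Python 3.11.15 and pandas 2.3.3 were used for the rest. Regions named were each promoter region of the 9 genes, the distal region of highest mean rank and that of smallest p per gene, and regions in all lists of one operation and none of the other; of the wider list, the 3 genes of smallest p per direction. Other regions or genes named were chosen after their values were seen. Genes and lists were chosen with earlier results of these data known. Pathway symbols were matched to the annotation, Ero1a as its synonym Ero1l.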

Additional observations from a re-analysis of the deposited data

How the results depend on the processing

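Calls depend on the processing. Over all regions the count called by limma, 589, was 22 with all deposited peaks, 2 with the 20000 strongest, 3 when ranked by fold enrichment, 180 with a −log10 q of at least 5, 108 with 50% overlap, 237 with summit windows, 1583 with normal scores, 2 with no filter, 1452 with array weights, 1 with GC-corrected ranks and 4 to 76 when a library was left out. With the replicate block it was 55, and with the block and GC-corrected ranks 0. Same-numbered libraries had deviations that correlated at 0.0082, -0.10 and -0.05. These values show no pairing by number but, with 3 libraries per group, cannot exclude it. Regions of the 9 genes called, 0, became 1 with 50% overlap (Egln3 2, adjusted p = 0.0262, where no Sham peak covers that share of the region and the difference is 85.7), 1 with normal scores (Vhl 5, 0.0447) and 1 with array weights (Egln1 9, 0.043). Regions without overlap, 21 of 71 tested (29.6%), became 8 of 25 (32.0%) with the 20000 strongest peaks. They became 12 of 61 (19.7%) by fold enrichment and 13 of 42 (31.0%) within 5 kb of the genes. The share over all regions was not taken under these settings. The promoter median, 0.20, was -5.46 by fold enrichment and -3.67 to 2.41 with a library left out; the distal median, 1.81, was 10 with the 20000 strongest peaks, 5.28 with the −log10 q minimum and -0.06 to 4.20 with a library left out. Siah2 alone was called in the wider list, with 50% overlap (1 gene, limma adjusted p = 0.0254).

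Of 29 named regions, 16 kept the sign of their difference and 13 did not. By fold enrichment the difference was -4.35 at the Epas1 promoter, -2.17 at Egln3 4, -3.85 at Bnip3 3, -6.57 at Bnip3 8, -3.65 at Ankrd37 1 and 0.024 at Egln2 2. GC-corrected ranks, with and without the replicate block, gave -0.33 at Epas1 1 and -0.62 at Ankrd37 1. An overlap of 50% gave -4.30 at Epas1 1. All deposited peaks gave 0.56 at Vhl 3 and 1.11 at Egln2 2, and the −log10 q minimum 1.19 at Vhl 3, 1.74 at Egln1 8 and 1.83 at Egln2 2. Array weights gave 0.34 at Egln2 2 and -1.83 at Vegfa 9, and summit windows -0.36 at Egln2 7. With 1 library left out, the range crossed 0 at Hif1a 7 (-0.40 to 6.01), Epas1 1 (-0.71 to 1.96), Epas1 3 (-0.87 to 0.27), Vhl 3 (-3.93 to 2.59), Egln2 2 (-1.05 to 0.99), Egln2 4 (-4.94 to 0.16), Egln2 7 (-0.74 to 3.21), Vegfa 9 (-6.98 to 14.5), Bnip3 3 (-1.47 to 6.31) and Ankrd37 1 (-0.92 to 2.41). The cause of these changes was not tested. Depth is unknown, so a region at rank 0, absent from a list or below its strongest 77355 peaks, is not shown to be closed.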
